A study of Mus musculus with 6 samples.

Results

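The carboxylesterase (Ces) genes were examined in liver RNA of mice kept on a high-fat diet. The 10 genes described were chosen by symbol: Ces1b, Ces1c, Ces1d, Ces1e, Ces1f, Ces1g, Ces2a, Ces2e, Ces3a and Ces3b, out of 46095 gene symbols measured. All 10 were found and all 10 were above the low-value filter, which asks for 1 FPKM or more on average across the libraries (FPKM is the number of fragments scaled by gene length and by the size of the library). Another 10 carboxylesterase genes are in the table and are given for comparison.

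The study compared 3 wild-type libraries (HFD-WT) with 3 libraries of mice lacking ARRB1 (HFD-ARRB1-KO), a beta-arrestin that binds activated G protein-coupled receptors. All animals are labelled C57BL/6 and were fed the diet for 26 weeks, the tissue is given as liver and the cells as hepatocytes. The sources used here do not say how the knockout was made, or whether a library stands for 1 animal or a pool. The spread that p-values measure is therefore that of the libraries, which may be technical. The titles of all 3 knockout libraries name ARRB1 and set the groups, but in replicates 2 and 3 the genotype field reads ARRB2 and ARRB3 instead.

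Carboxylesterases are serine hydrolases of the alpha/beta-hydrolase fold. Most sit in the lumen of the endoplasmic reticulum of liver cells, where they cleave ester bonds of drugs, pesticides, triglycerides and cholesteryl esters, and several bear on the release of stored fat for lipoprotein assembly. In the mouse the genes have multiplied into tandem arrays, so that the single human CES1 gene corresponds to a set of mouse Ces1 copies.

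All 10 genes lie on chromosome 8 in 2 arrays (GRCm38, GENCODE vM21 annotation). The Ces1 array runs from 93020214 to 93535830 and is read from the minus strand. The Ces2 and Ces3 array runs from 104734003 to 105150109 and is read from the plus strand. The single genes of the first array span 93056728 to 93080017 for Ces1b, 93099015 to 93131283 for Ces1c, 93166068 to 93197838 for Ces1d, 93201218 to 93229619 for Ces1e, 93256236 to 93279747 for Ces1f and 93302369 to 93337308 for Ces1g. In the other array Ces2a spans 104734003 to 104741634, Ces2e 104926260 to 104934672, Ces3a 105048601 to 105058413 and Ces3b 105083753 to 105093929.

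The ends of the coding regions show how the copies differ at the site that sorts the protein. Many carboxylesterases kept in the endoplasmic reticulum end in a retrieval signal of histidine, any residue, glutamate and leucine, which KDEL receptors recognise. The last 30 coding bases of each gene follow, 5′ to 3′, from the GENCODE vM21 transcripts (GRCm38, sense strand), with the final 4 codons and the stop codon in capitals.
Ces1b: gaccctactgagcacAGAGAACACAAATGA
Ces1c: gaccctactgaacacACAGAACACAAATGA
Ces1d: ccatcccacagggaaCATGTTGAGCTCTGA
Ces1e: caactgccgacagaaCACACTGAGCTGTGA
Ces1f: caaccccagccatacCACAATGAGCTGTGA
Ces1g: tcatcccatagggaaCATGTTGAACTGTGA
Ces2a: ggttctcaggacaagCATGCAGAGCTGTAG
Ces2e: gggtctcaggagaggCACAAAGAGTTGTAG
Ces3a: agaagcaggaaagttCCAGAGGAGCTCTGA
Ces3b: agaagcaggaaagttCCAGAGGAGCTCTGA
Codons for this form of the signal ended the coding region of 6 genes (Ces1d, Ces1e, Ces1f, Ces1g, Ces2a and Ces2e) and were not at the end of the other 4. Other forms were not searched for, so the ends of those 4 genes do not show whether their proteins are retained. Among those 4 is Ces1c, which encodes the esterase of mouse blood plasma. The printed ends of Ces3a and Ces3b are the same 30 bases.

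The catalytic serine lies in a motif of glycine, any residue, serine, any residue and glycine. Codons for this motif were found in each of the 10 coding regions, with the serine at codon 221 in Ces1b, Ces1c, Ces1d, Ces1f and Ces1g, 222 in Ces1e, 227 in Ces2a, 228 in Ces2e and 232 in Ces3a and Ces3b, counted from the start codon. The windows of 33 bases below are shown for the 3 genes that changed in the knockout (Ces1g, Ces2e and Ces3b) and for Ces1b and Ces2a, with the 5 motif codons in capitals.
Ces1b: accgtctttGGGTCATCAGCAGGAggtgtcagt
Ces1g: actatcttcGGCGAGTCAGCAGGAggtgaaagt
Ces2a: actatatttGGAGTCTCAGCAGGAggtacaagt
Ces2e: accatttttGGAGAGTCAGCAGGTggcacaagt
Ces3b: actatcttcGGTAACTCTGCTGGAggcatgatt
The serine codon is TCA in the first 4 of these windows and TCT in Ces3b.

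Reads of such copies can match more than 1 gene, and the sources used here give neither the read length nor how such reads were handled. Coding regions of Ces3a and Ces3b were identical at 95.3% of 1716 aligned bases, those of Ces1b and Ces1c at 90.9% of 1665, and those of Ces2a and Ces2e at 83.3% of 1677. The 15 pairs within Ces1 had a median of 78.0%, and the 28 pairs from different subfamilies had a median of 62.2%. Of the 50-base windows of its transcript, Ces3a shared 30.9% exactly with Ces3b, and Ces3b shared 26.1% with Ces3a. With windows of 100 bases these shares were 9.09% and 7.68%. Ces2a shared 20.9% of its 50-base windows with Gm7208, a neighbouring annotated gene measured at 0.0991 FPKM or less in every library. Ces1b and Ces1c shared 11.6% and 17.0% with other genes, mostly with each other, while Ces1d, Ces1e, Ces1f, Ces1g and Ces2e shared from 1.28% (Ces1d) to 3.36% (Ces2e). The values of Ces3a, Ces3b, Ces1b, Ces1c and Ces2a are uncertain for that reason. These shares do not bound the error of a value, which also depends on the level of the matching gene. In wild type Ces3a averaged 983 FPKM against 166 FPKM for Ces3b, and Ces1c 1091 FPKM against 31.8 FPKM for Ces1b. How far shared reads bear on the values of Ces3b and Ces1b was not tested. The map of coding identity shows the pairs concerned.

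**Figure D1:**
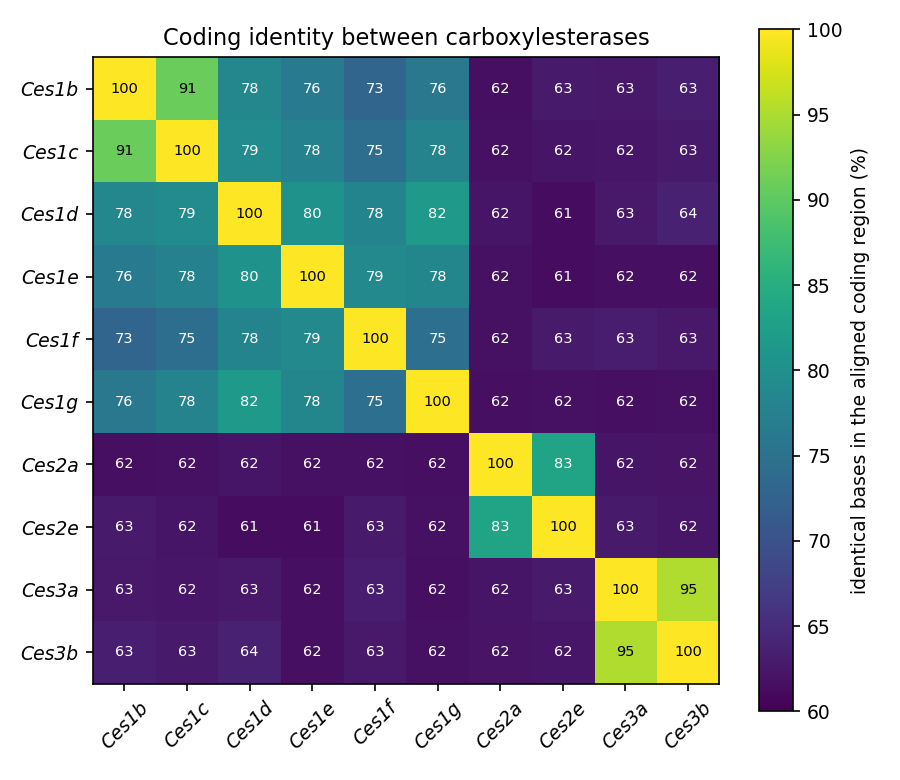
Identical bases in pairwise global alignments of the coding regions of the 10 genes, in percent of aligned bases, on a colour scale from 60 to 100. Ces3a and Ces3b stand out at 95.3% and Ces1b and Ces1c at 90.9%, and pairs from different subfamilies lie near 62%.

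The libraries held an estimated 13910000 to 35060000 fragments, and knockout replicate 1 was the shallowest. Wild-type replicates 1 to 3 gave 3.86, 22.7 and 16.9 FPKM for Arrb1, against 0.918, 1.05 and 1.16 FPKM in the knockout replicates. Arrb1 was thus lower in each knockout library than in any wild-type library, with wild-type replicate 1 nearest to them (log2 difference -2.64; limma, adjusted p = 0.0275), and the call held in 1 of the 6 fits that left out a library (adjusted p from 0.00110 to 0.1001). The 10 hepatocyte markers summed to 46724 to 56029 FPKM in wild type and 43665 to 51587 FPKM in knockout. Among them Cps1 and Tat were lower in the knockout, none was higher, and the median log2 difference of the list was -0.33. Of 10 macrophage markers 1 was higher (Gpnmb) and 1 lower (Vsig4), and their sum ran from 253 to 269.9 FPKM in wild type and from 287 to 419 FPKM in knockout. Of the stellate cell and fibroblast markers 2 of 8 were higher (Col3a1 and Col1a1; sums of 104 to 122 against 126 to 193 FPKM), and of the endothelial markers 2 of 6 (Lyve1 and Pecam1; 73.8 to 87.1 against 82.7 to 96.3 FPKM). Of all tested genes, 6.9% were called in either direction (limma, adjusted p under 0.05), and 25.3% were at an unadjusted p under 0.05. Beside that 25.3% stood 4 of the hepatocyte, 6 of the macrophage, 4 of the stellate cell and fibroblast and 3 of the endothelial markers. None of 4 tested cholangiocyte, 2 adipocyte, 2 lymphocyte and neutrophil or 4 erythroid markers was called, and at an unadjusted p under 0.05 there were 0, 2, 0 and 2. The defining adipocyte genes Adipoq, Lep, Retn and Plin1 and all 5 kidney markers stayed under 1 FPKM in every library, while the summed adipocyte list ran from 11.3 to 26.8 FPKM in wild type and from 28.3 to 66.4 FPKM in knockout. Each of these 4 adipocyte genes was highest in knockout replicate 3, at 0.723, 0.240, 0.0301 and 0.632 FPKM. So were Cfd and Fabp4 of the same list, at 34.4 and 30.4 FPKM. Of the markers of intestine and pancreas, Fabp2 and Apoa4 were higher and Cela1 lower, while Prss1 and Cpa1 were listed at 0 and Vil1 and Cela2a stayed under 1 FPKM. That list summed to 314 to 1033 FPKM and 2647 to 3182 FPKM, most of it Apoa4, which liver also expresses. The part of these shifts in the results below was not tested, and in liver tissue fewer cells of a type and less RNA per cell cannot be told apart.

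Ces1c and Ces3a dominated the family. In the wild-type libraries Ces1c measured 1032, 1158 and 1084 FPKM and Ces3a 968, 1095 and 886 FPKM, at ranks 58 and 67 of the 10633 tested genes by mean level over all libraries. Together they made up 73.2% ± 2.82 of the summed FPKM of the 10 genes in wild type and 68.3% ± 1.78 in knockout (SD, n = 3 each). Their wild-type ranges overlapped, and both lay apart from the next gene, Ces1d. Ces1d, Ces3b and Ces1f followed at 184, 166 and 140.0 FPKM, with neighbouring ranges that overlapped. Ces2e, Ces1g, Ces2a and Ces1e came next, between 67.4 and 45.5 FPKM, again with overlapping neighbours, and Ces1b was lowest at 31.8 FPKM. In the knockout Ces3b dropped from the 4th to the 7th place, below Ces2e and Ces1g, whose ranges overlapped with each other, and that of Ces1g with Ces3b.

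The 10 genes together made up 0.602% ± 0.0265 of the summed FPKM of a wild-type library and 0.543% ± 0.0523 of a knockout library (SD, n = 3 each). The groups overlapped, since knockout replicate 1 reached 0.602% and lay inside the wild-type range of 0.580% to 0.631%. Counted as fragments, a measure added after the values were seen, the shares were 0.563% ± 0.0184 and 0.494% ± 0.0450 and did not overlap. The Ces3 pair took 0.244% ± 0.0208 of the FPKM in wild type and 0.192% ± 0.0177 in knockout, without overlap. The Ces2 pair stood the other way, at 0.0267% ± 0.00135 and 0.0350% ± 0.00376, also without overlap. The Ces1 genes overlapped, at 0.331% ± 0.00732 and 0.315% ± 0.0437. None of these shares was tested.

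**Figure D2:**
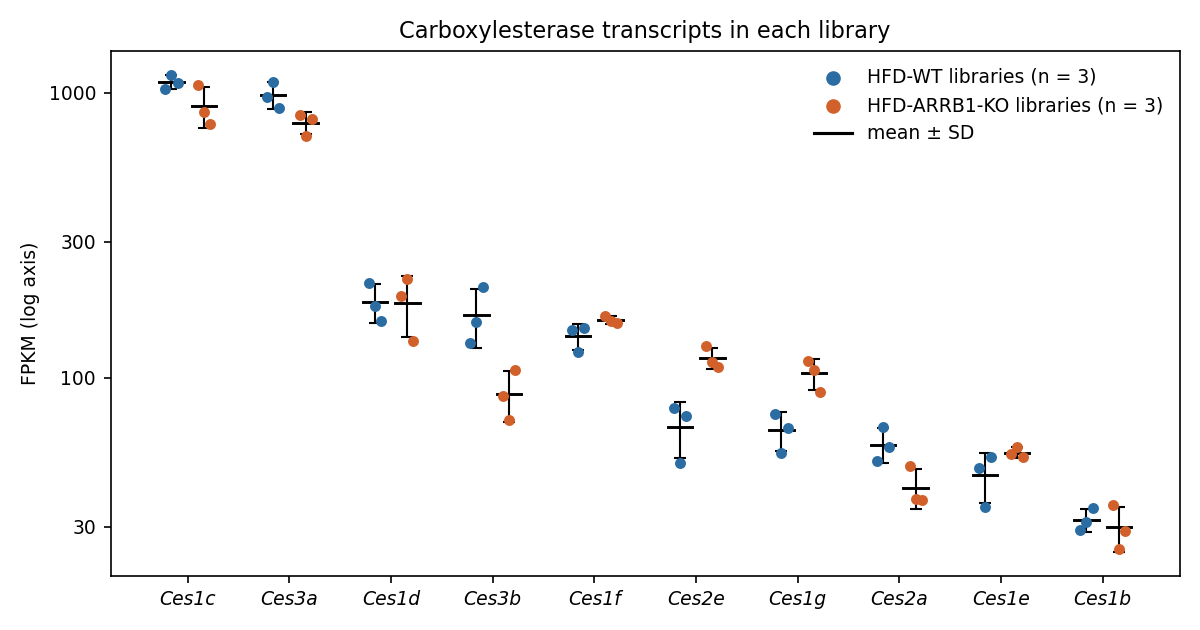
FPKM of each gene (log axis) in the 3 wild-type and 3 knockout libraries, ordered by the wild-type mean, with mean and SD as black bars. The knockout points of Ces1g and Ces2e lie above all wild-type points and those of Ces3b below them, while Ces1d and Ces1b overlap.

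In the knockout libraries Ces2e and Ces1g rose and Ces3b fell, and the other 7 genes did not pass the test. Thus 3 of 10 genes were called (limma, adjusted p under 0.05 over all tested genes), beside 6.9% of the 10633 tested genes. By direction, 2 of 10 were higher beside 5.3% of all genes, and 1 of 10 was lower beside 1.6%. The groups did not overlap for 6 of the 10 genes, 3 higher and 3 lower, beside 31.2% of all tested genes (23.4% higher and 7.81% lower). The median log2 difference was -0.059 for the 10 genes and 0.075 for all genes, taken as knockout minus wild type in log2(FPKM + 1). Higher genes made up 76.8% of all calls on the deposited scale, 85.2% with values rescaled to TPM, 64.5% with quantile-normalized values and 59.9% with median-of-ratios factors.

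**Figure D3:**
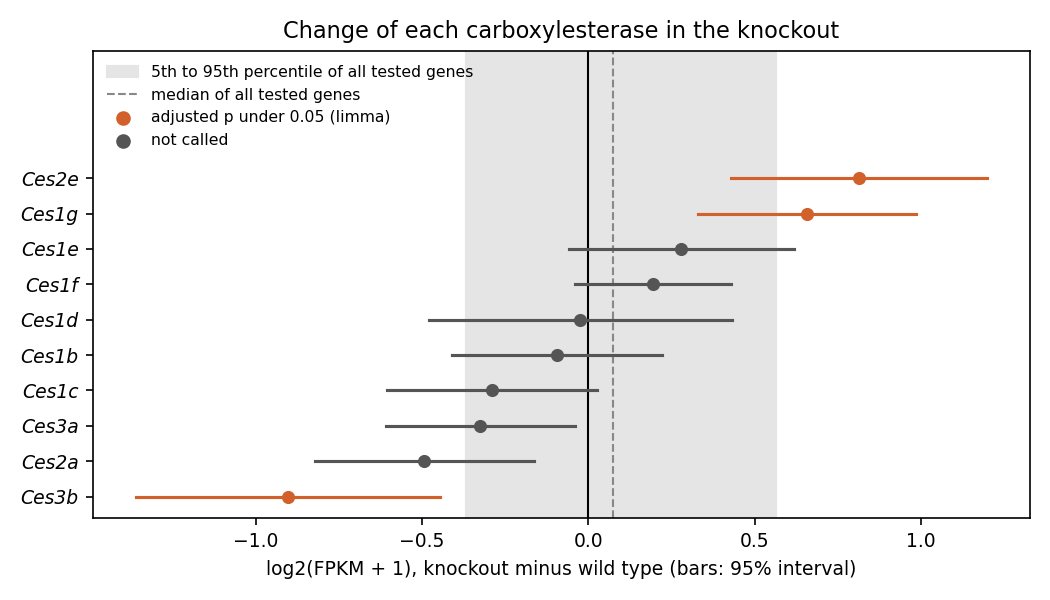
Difference of each gene between knockout and wild type in log2(FPKM + 1), with its 95% interval, against the 5th to 95th percentile (grey) and median (dashed) of all tested genes. Ces2e at 0.81 and Ces1g at 0.66 lie above the grey band, and Ces3b at -0.90 and Ces2a at -0.49 below it, of which Ces2a was not called.

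Ces1d encodes triacylglycerol hydrolase, the esterase best known for mobilising stored triglyceride for very low density lipoprotein. Its levels were 215, 179 and 159 FPKM in the wild-type libraries, against 194, 222 and 134 FPKM in the knockout libraries. The knockout libraries spanned a wider range that enclosed all wild-type values. They differed by -0.02 on the log2 scale with a 95% interval from -0.48 to 0.43 (limma, adjusted p = 0.953), and the sign turned with values rescaled to TPM or quantile-normalized, and when wild-type replicate 1 or knockout replicate 3 was left out.

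Ces1g, a triglyceride-hydrolysing esterase linked in mice to liver fat and blood lipids, rose. Wild-type libraries gave 74.9, 54.6 and 66.9 FPKM, from 5709, 3490 and 4639 fragments, and knockout libraries 114, 107 and 89.3 FPKM, from 3644, 8583 and 5966 fragments. Each knockout library was above each wild-type library. The means were 65.5 ± 10.2 and 104 ± 12.9 FPKM (SD, n = 3 each), a ratio of 1.58. The log2 difference was 0.66 ± 0.141 (SE; limma, adjusted p = 0.0371), and an exact permutation test, two-sided, gave 0.1, which is its minimum for 3 against 3 libraries. The call was lost when wild-type replicate 2 or 3 was left out (adjusted p = 0.105 and 0.0703), and likewise for knockout replicate 1 or 2 (0.0807 and 0.130). Among the scalings and filters tried, it was also lost with median-of-ratios factors (0.0634), quantile-normalized values (0.0528) and no filter (0.117).

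Ces1f, another triglyceride hydrolase of liver, lies next to Ces1g. Its wild-type values were 148, 123 and 149 FPKM and its knockout values 165, 158 and 155 FPKM. The groups did not overlap, yet the distance between them was small beside the spread of the wild-type libraries. With a log2 difference of 0.19 ± 0.101 (SE; 95% interval -0.04 to 0.43), Ces1f did not pass the test (limma, adjusted p = 0.275).

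Ces1e encodes egasyn, which binds beta-glucuronidase in the endoplasmic reticulum. The wild-type libraries held 48.4, 35.3 and 52.8 FPKM, against 54.0, 57.3 and 52.7 FPKM in the knockout libraries. Wild-type replicate 2 was low, and the groups overlapped by the narrow margin between 52.7 and 52.8 FPKM. Ces1e did not pass the test (log2 difference 0.28 ± 0.146, SE; limma, adjusted p = 0.273). Gusb, the gene of beta-glucuronidase, rose from 11.8 ± 1.16 to 17.0 ± 1.46 FPKM (SD, n = 3 each; limma, adjusted p = 0.0340).

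Ces1c, the plasma esterase gene, had the highest mean of the family in both groups and was not called. Against the wild-type values of 1032 to 1158 FPKM it measured 1063, 853 and 780.3 FPKM in the knockout replicates. Replicates 2 and 3 were below every wild-type library and replicate 1 was among them, and in replicate 3 Ces1c was below Ces3a. On the log2 scale Ces1c differed by -0.29 ± 0.136 (SE), with a 95% interval from -0.61 to 0.03 (limma, adjusted p = 0.229).

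Ces1b, the closest copy of Ces1c, was low in both groups. Its wild-type levels of 29.2, 31.2 and 34.9 FPKM overlapped with its knockout levels of 35.7, 25.0 and 29.0 FPKM. The difference was -0.09 in log2 units with a 95% interval from -0.41 to 0.22 (limma, adjusted p = 0.710), and the sign turned when knockout replicate 2 was left out.

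Within each library, Ces1g stood higher relative to other genes of its array in the knockout. The ratio of Ces1g to Ces1c was 0.0605 ± 0.0127 in wild type and 0.116 ± 0.00889 in knockout (SD, n = 3 each). The ratio of Ces1g to Ces1f went from 0.466 ± 0.0351 to 0.648 ± 0.0628, and that of Ces1g to Ces1d from 0.359 ± 0.0588 to 0.579 ± 0.0928. None of these ratios overlapped between the groups, whereas that of Ces1c to Ces1b did, at 34.5 ± 3.14 and 30.2 ± 3.62. The pairs were chosen after the values were seen and were not tested.

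Ces2a and Ces2e, drug- and lipid-hydrolysing esterases of the Ces2 subfamily, had differences of opposite sign, of which that of Ces2e passed the test. Ces2e stood at 78.1, 50.4 and 73.6 FPKM in the wild-type libraries, from 7022, 3797 and 6024 fragments, and at 129, 114 and 109.6 FPKM in the knockout libraries, from 4836, 10782 and 8627 fragments. Each knockout library was above each wild-type library, and wild-type replicate 2 was the lowest. Ces2e rose from 67.4 ± 14.9 to 117 ± 10.1 FPKM (SD, n = 3 each), a ratio of 1.74. The log2 difference was 0.81 ± 0.166 (SE; limma, adjusted p = 0.0320; exact permutation p = 0.1, the minimum). Leaving out wild-type replicate 3 (adjusted p = 0.0515) or knockout replicate 1 (0.0711), 2 (0.103) or 3 (0.0666) ended the call, as did median-of-ratios factors (0.0539) and no filter (0.111).

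For Ces2a the wild-type libraries gave 50.9, 67.0 and 57.1 FPKM and the knockout libraries 48.9, 37.5 and 37.3 FPKM. The groups did not overlap, and wild-type replicate 1 and knockout replicate 1 lay close to each other. Ces2a did not pass the test (log2 difference -0.49 ± 0.142, SE; limma, adjusted p = 0.0807; exact permutation p = 0.1), but did when knockout replicate 1 was left out (-0.62, adjusted p = 0.0472).

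The ratio of Ces2e to Ces2a, which does not depend on the scaling of a library, was 1.53, 0.752 and 1.29 in wild type and 2.63, 3.04 and 2.94 in knockout. Every knockout library had a higher ratio than every wild-type library. That follows from the values above, since neither gene overlapped between the groups and their differences had opposite signs. The ratio was added after the values were seen and was not tested. The 120 bases before the annotated start of each gene are printed for this pair because their differences had opposite signs, though that of Ces2a did not pass the test (RefSeq, GRCm38.p6, plus strand), at chr8:104733883-104734002 for Ces2a and chr8:104926140-104926259 for Ces2e. Capitals mark runs of at least 10 bases that occur in both windows.
Ces2a: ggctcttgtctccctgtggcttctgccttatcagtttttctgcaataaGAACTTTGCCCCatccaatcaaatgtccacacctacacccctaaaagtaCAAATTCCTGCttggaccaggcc
Ces2e: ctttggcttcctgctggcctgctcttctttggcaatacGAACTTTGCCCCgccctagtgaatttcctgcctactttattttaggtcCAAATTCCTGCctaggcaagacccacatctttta
The shared runs cover 23 of the 120 bases of each window. Searched on both strands, CCAAT is in the window of Ces2a and not in that of Ces2e, and occurs in 21.3% of the 32851 windows of this length in the promoter table. It is also in the windows of Ces1b, Ces1c, Ces1g and Ces3b, of which Ces1g was called higher and Ces3b lower. Neither the Ces2a nor the Ces2e window holds TATAAA or AGGTCA, which occur in 6.34% and 6.91% of the 32851 windows. The table has entries for 7 of the 10 genes, which leaves Ces1d, Ces1f and Ces3a without one.

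**Figure D4:**
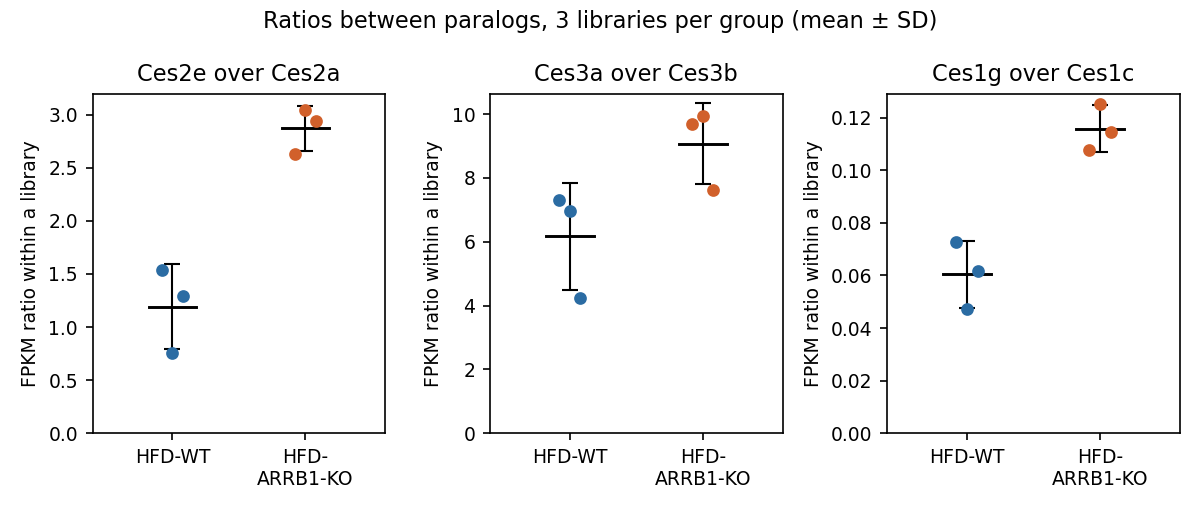
Ratios of FPKM between paralogs within each library, for 3 wild-type and 3 knockout libraries, with mean and SD. All 3 ratios are higher in each knockout library than in any wild-type library, with Ces2e over Ces2a going from a mean of 1.19 to 2.87. They were chosen after the values were seen. Of the ratios not shown, Ces1g over Ces1d and Ces1g over Ces1f did not overlap between the groups, and Ces1c over Ces1b did.

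Ces3a and Ces3b, liver esterases of the Ces3 subfamily, were both lower in each knockout library than in any wild-type library, and Ces3b passed the test. In the wild-type libraries Ces3b reached 133, 157 and 209 FPKM, from 9482, 9405 and 13609 fragments, against 86.4, 71.1 and 106 FPKM in the knockout libraries, from 2579, 5349 and 6668 fragments. Wild-type replicate 3 was the highest of its group and knockout replicate 2 the lowest of its own. Ces3b fell from 166 ± 39.1 to 88.0 ± 17.7 FPKM (SD, n = 3 each), a ratio of 0.529. The log2 difference was -0.90 ± 0.197 (SE; limma, adjusted p = 0.0384; exact permutation p = 0.1, the minimum). No call was made when wild-type replicate 2 or 3 was left out (adjusted p = 0.112 and 0.0700), nor for knockout replicate 1 or 2 (0.0763 and 0.130), with array weights (0.0527) or with no filter (0.131).

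Ces3a measured 836, 705 and 810.5 FPKM in knockout, below its wild-type range of 886 to 1095 FPKM. Ces3a did not pass the test (log2 difference -0.32 ± 0.122, SE; 95% interval -0.61 to -0.04; limma, adjusted p = 0.152). The ratio of Ces3a to Ces3b was 7.30, 6.98 and 4.24 in wild type and 9.68, 9.93 and 7.61 in knockout. The knockout ratios were all higher, the nearest values being 7.61 in knockout replicate 3 and 7.30 in wild-type replicate 1.

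With the 2 knockout libraries whose genotype labels name other genes both left out, 1 knockout library remained and none of the 10 genes was called (limma; 2 higher and 1 lower gene were at an unadjusted p under 0.05). The log2 differences of the 3 called genes kept their signs there, at 0.95 for Ces2e, 0.81 for Ces1g and -0.91 for Ces3b. Ces1c was at -0.036, Ces2a at -0.24 and Ces3a at -0.23, against -0.29, -0.49 and -0.32 with all libraries. Ces1e was at 0.26 and Ces1f at 0.24, against 0.28 and 0.19, and the signs of Ces1b and Ces1d turned. The lone library was assumed to vary like the wild-type libraries.

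Of the other 10 carboxylesterase genes, 3 passed the filter and 1 was called. Ces2g, which lies beyond Ces2f from Ces2e, gave 19.6, 17.1 and 17.8 FPKM in wild type, against 22.1, 25.3 and 25.0 FPKM in knockout, and rose by a log2 difference of 0.39 ± 0.0935 (SE; limma, adjusted p = 0.0493). Leaving out any 1 library ended that call (adjusted p from 0.0508 to 0.163), as did 6 of the 11 other settings. Ces2c, at 11.0 ± 1.82 and 12.5 ± 2.61 FPKM (SD, n = 3 each), overlapped between the groups and was not called (limma, adjusted p = 0.578). For Ces4a, on 28 to 244 fragments, the wild-type libraries gave 2.83, 2.11 and 3.31 FPKM and the knockout libraries 0.828, 0.492 and 2.27 FPKM, which overlapped and did not pass the test (limma, adjusted p = 0.115). Ces1a, Ces1h, Ces2b, Ces2d-ps, Ces2f and Ces2h stayed under 1 FPKM in every library, and Ces5a was listed at 0 in each.

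Genes flanking the arrays were compared to see how the surrounding chromosome stood. Up to 5 protein-coding genes on each side of an array were taken, within 250 kb of it, a limit set after the values were seen. Of these, 2 of 4 at the Ces1 array and 5 of 10 at the Ces2 and Ces3 array were tested, and limma called none of these (adjusted p from 0.0762 to 0.953), beside 6.9% of all genes. At an unadjusted p under 0.05 there were 1 and 2 of them, beside 25.3% of all genes. The groups did not overlap for Mmp2, Lpcat2 and Fbxl8, which were higher, and Cbfb, which was lower, beside 31.2% of all genes. Beside the Ces1 array, Mmp2 stood at 0.34 and Lpcat2 at 0.40 on the log2 scale. Those of the other array lay between -0.30 (Cbfb) and 0.62 (Fbxl8), with Pdp2 at 0.06, D230025D16Rik at -0.04 and Tradd at -0.01. Along the Ces2 and Ces3 array, Ces2c, Ces2e and Ces2g, with positive differences, lay between Ces2a on one side and Ces3a, Ces3b and Ces4a on the other, all with negative ones. Only Ces2e, Ces2g and Ces3b of these genes were called, and Ces2c and Ces4a overlapped between the groups.

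**Figure D5:**
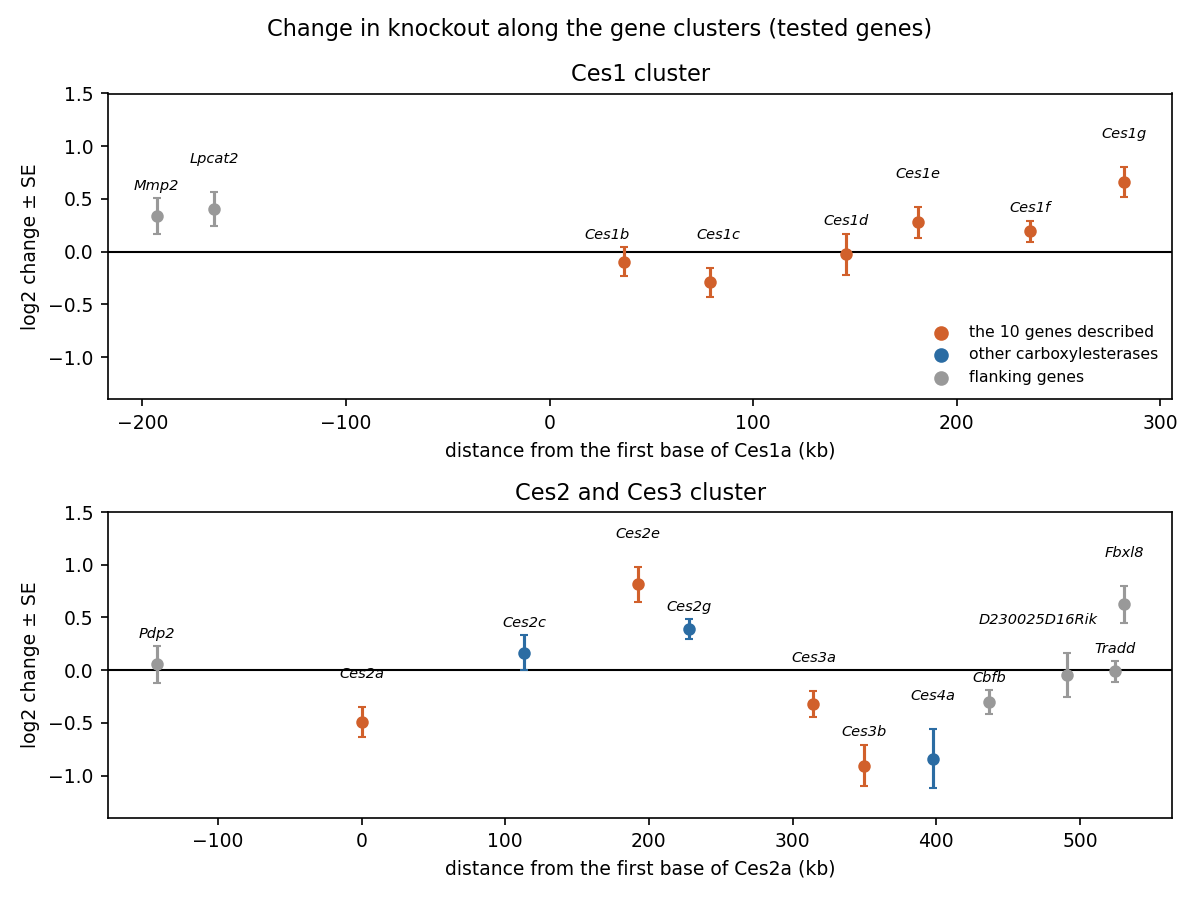
Log2 difference (knockout minus wild type, on log2(FPKM + 1)) with its SE for tested genes along the 2 arrays, by distance in kb from the first base of Ces1a (upper panel) and Ces2a (lower panel). In the lower panel Ces2a lies at -0.49, Ces2e at 0.81, Ces3a at -0.32 and Ces3b at -0.90, and grey flanking genes lie between -0.30 and 0.62.

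Other hydrolases of esters and lipids included 5 higher and 0 lower genes among 23 tested (limma), beside 5.3% and 1.6% of all genes. At an unadjusted p under 0.05 there were 10 of the 23, beside 25.3% of all genes. Mgll, which cleaves monoglycerides, rose from 53.0 ± 13.1 to 144 ± 4.61 FPKM (SD, n = 3 each), with a log2 difference of 1.45 (limma, adjusted p = 0.00554). Abhd6, another monoglyceride hydrolase, rose from 5.49 ± 0.739 to 9.61 ± 0.577 FPKM, Abhd2 from 32.5 ± 5.02 to 59.8 ± 8.73 FPKM, and the epoxide hydrolase Ephx1 from 142 ± 24.2 to 272 ± 39.1 FPKM. The other gene called was Nceh1, a cholesteryl ester hydrolase, named after its values were seen. The list's median log2 difference was 0.21, beside 0.075 for all genes.

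Partners in lipoprotein assembly and lipid droplets included 3 higher and 0 lower genes among 14 tested (limma), beside 5.3% and 1.6% of all genes, with a median log2 difference of 0.22. At an unadjusted p under 0.05 there were 6, beside 25.3% of all genes. Cidec, a droplet fusion protein, rose from 1.27 ± 0.800 to 53.1 ± 22.6 FPKM (SD, n = 3 each), the droplet protein Plin5 from 31.0 ± 8.44 to 65.4 ± 8.17 FPKM, and Sec24c, a coat protein of vesicles leaving the endoplasmic reticulum, from 29.8 ± 2.02 to 38.9 ± 1.81 FPKM. The droplet protein Plin2 was at 361 ± 122 and 660.02 ± 105 FPKM and was not called (limma, adjusted p = 0.0607).

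Among 17 tested genes for transcription factors that act on liver carboxylesterase or related genes, 1 was higher and 0 were lower (limma), beside 5.3% and 1.6% of all genes. The 3 at an unadjusted p under 0.05 stood beside 25.3% of all genes, and the median log2 difference was 0.14. Ppara, the receptor that drives fatty acid oxidation, rose from 38.8 ± 5.72 to 61.6 ± 6.94 FPKM (SD, n = 3 each; limma, adjusted p = 0.0275). Srebf1, a driver of lipid synthesis, was at 72.9 ± 4.82 and 52.8 ± 8.37 FPKM (adjusted p = 0.0709), and Nr1i2, the xenobiotic receptor PXR, at 25.1 ± 2.47 and 32.2 ± 3.05 FPKM (adjusted p = 0.0943). Rxra, the shared partner of these receptors, was at 111 ± 9.95 and 129 ± 9.19 FPKM (adjusted p = 0.211).

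A list of KDEL receptors and glycoprotein quality control genes of the endoplasmic reticulum also held Gusb, the beta-glucuronidase gene given above. Of its 10 tested genes only Gusb was higher and 0 were lower (limma), beside 5.3% and 1.6% of all genes. No KDEL receptor or quality control gene was called. The 3 at an unadjusted p under 0.05 were near the 25.3% of all genes, and the median log2 difference was 0.16. Sel1l was at 45.8 ± 3.36 and 58.9 ± 3.69 FPKM (SD, n = 3 each; limma, adjusted p = 0.0607), the chaperone Hspa5 at 514 ± 89.4 and 709 ± 84.9 FPKM (adjusted p = 0.116), and Mia3 at 25.2 ± 4.69 and 30.4 ± 2.04 FPKM (adjusted p = 0.236).

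The genes whose levels ran most like those of the 3 called genes were found by the root mean square distance of log2(FPKM + 1) values, each centred on its mean over the 6 libraries. For Ces2e the nearest of the tested genes outside the family was Fabp2, a fatty acid binding protein, at a distance of 0.0562, followed by Tmem28 (0.0650) and Ufsp1 (0.0837). Wild-type and knockout means were 1.01 and 2.27 FPKM for Tmem28 and 1.52 and 3.04 FPKM for Ufsp1. Both were thus near the filter limit, where this scale understates fold differences. Fabp2 went from 68.1 FPKM in wild type to 118 FPKM in knockout and is also among the intestinal markers given above. For Ces1g the nearest were Med22 (0.0343), Retsat (0.0648) and Reep6 (0.0765), and for Ces3b they were Cyp2c44 (0.0975), Elovl3 (0.126) and Gm8893 (0.136). The closest profile to Ces3b was thus further away than any named for Ces1g or Ces2e. These distances describe likeness over 6 libraries that also share the genotype difference.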

How the data were processed

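RNA-seq was measured in 6 libraries. Per the labels' protocols, Trizol was used to isolate the RNA, of which 1 ug went into each TruSeq library (Illumina). The deposited values are FPKM per gene, made by the authors. The submitters' processing notes name the aligners HISAT2 and Bowtie 0.12.2 and, as builds, mm10 and mm8. The sources used here do not give their roles, the annotation, the strand setting or the read length.

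FPKM values moved in steps worth 1 fragment, and whole fragments were recovered in all libraries for 17549 of the 17549 genes above 0 in at least 4 (tolerance 0.001 fragments plus 5e-08 of the count, at most 0.05). Library totals are estimates, taken where the annotated lengths of single-transcript genes matched most often (272 of 1620 genes in an interval of 0.5%).

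Groups were compared with limma 3.58.1 in R 4.3.3 (two-sided, lmFit followed by eBayes with a trend), with genotype as the term. It was run on log2(FPKM + 1) for 10633 genes, those averaging 1 FPKM or more. Benjamini-Hochberg adjustment covered all of them, and calls were made under an adjusted p of 0.05. Fold differences on this scale understate low genes. Exact permutation tests were two-sided. The code was tested on simulated data. Sequences were compared with Biopython 1.88, on the longest coding transcript of each gene. Plots used matplotlib 3.10.9.

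The genes and lists were chosen with earlier results of these data known. Named are the 10 genes, Arrb1, the other carboxylesterases, tested flanking genes within 250 kb, up to 4 genes per list with the smallest p, and the 3 nearest profiles of each called gene. Markers named beyond these were chosen after their values were seen. The alternatives were 11 settings and each of the 6 libraries left out. Shares of fragments and ratios between genes were added after the values were seen. The distance limit on flanking genes was set after the values were seen, and an item beyond it is not reported here.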

Additional observations from a re-analysis of the deposited data

How the results depend on the processing

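Ces1c, Ces1e, Ces1f, Ces1g, Ces2a, Ces2e, Ces3a, Ces3b, Ces2g and Arrb1 kept their direction under all 17 alternatives. The sign of Ces1d turned to 0.030 on the TPM scale and 0.015 after quantile normalization, and its values with 1 library left out ran from -0.18 to 0.19. The values of Ces1b with 1 library left out ran from -0.22 to 0.023. With both knockout libraries of other genotype labels left out, chosen after seeing the data, Ces1b was at 0.17 and Ces1d at 0.089, 0 of the 10 genes were called higher and 0 lower by limma (2 and 1 at an unadjusted p under 0.05), and 30 genes in all were higher and 42 lower.

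The 2 higher calls among the 10 genes became 0 with no filter and 0 with median-of-ratios factors (2 at an unadjusted p under 0.05 in both), 1 with quantile-normalized values, 1 with the replicate block and 0 to 2 with 1 library left out. The 1 lower call became 0 with no filter, 0 with array weights (2 and 4 at an unadjusted p under 0.05) and 0 to 1 with 1 library left out. Among all genes, 564 higher calls became 88 with no filter, 990 with TPM, 346 with median-of-ratios factors, 371 with quantile-normalized values, 280 with the replicate block and 94 to 422 with 1 library left out. The 170 lower calls became 58 with no filter and 54 to 119 with 1 library left out. With no filter 22476 genes were tested, and leave-one-out fits hold fewer libraries; for the other settings the cause was not tested.

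The replicate numbers of the titles did not pair the libraries: deviations from the group means of same-numbered libraries correlated at 0.17, -0.063 and 0.097, and wild-type replicate 2 correlated best with knockout replicate 3. With the number as a block Ces1g was not called (adjusted p = 0.0510), while Ces2e and Ces3b were. Voom on the recovered fragments called 995 of 10630 genes, Ces1g, Ces2e and Ces3b among them.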
